A study of Galdieria sulphuraria with 9 samples.

Results

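Transcript levels of 3 genes with products in membrane transport were followed in *G. sulphuraria* through a timeline of temperature shifts. They are Gs15740, annotated as a vacuolar H+-translocating PPase, Gs34210, a mitochondrial carrier annotated as an adenine nucleotide translocator, and Gs16000, annotated as an ATP-binding protein of an ABC transporter. They were chosen by gene number from the 6538 genes of the count files. All 3 are in the study's list of genes that differ between heat and cold, which was drawn from these cultures. Their cold and heat levels are therefore given as a description, without a test.

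*G. sulphuraria* is a red alga that lives as single cells in hot, acidic springs, and its wild-type strain 074W was grown in photoautotrophic batch cultures. Replicate cultures A, B and C were sampled after 2 weeks at 42 °C (H-42, cultures B and C), after 48 h at 28 °C (C-28.1, cultures A, B and C), after a further 48 h at 46 °C (H-46, cultures A and C) and after another 48 h at 28 °C (C-28.2, cultures A and C). Heat comprised the 4 libraries of H-42 and H-46, and cold the 5 libraries of C-28.1 and C-28.2. The replicate letter of a library was taken as its culture in every sampling. In the heat and cold means below, n counts the libraries of heat or of cold. Culture C therefore enters more than once in heat, and cultures A and C do so in cold. RNA was sequenced in 9 libraries of 4389066 to 8989387 counts, and levels are given as CPM, counts scaled to a common library size after TMM adjustment for composition. Since every cold sampling followed a heat sampling, temperature and the order of sampling cannot be told apart within one shift. Every direction below rests on the temperatures in the sample labels. In the study's list the columns headed heat and cold stand the other way round for these 3 genes, and which heading holds was not settled here. If the sample labels were exchanged, every direction of cold over heat would turn.

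The proton-pumping pyrophosphatase is a membrane protein of plants, algae and some microbes that splits pyrophosphate, a by-product of biosynthesis, and moves protons into the vacuole with the energy released. It shares that membrane with the V-type H+-ATPase, which does the same work with ATP. The adenine nucleotide translocator sits in the inner mitochondrial membrane, where it exchanges ATP made in the matrix for ADP from the cytosol. ABC transporters bind and hydrolyse ATP through a conserved cassette to move substrates across membranes. The substrate of the Gs16000 product cannot be read from its name.

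The level of the pyrophosphatase gene Gs15740 was higher in every cold library than in every heat library. It was 284 and 258 CPM in cultures B and C at H-42 and 1036, 1007 and 952 CPM in cultures A, B and C at C-28.1. In cultures A and C, it was 315 and 197 CPM at H-46 and 651 and 465 CPM at C-28.2. The lowest cold library, C-28.2 C, was 1.47-fold above the highest heat library, H-46 A. The mean was 264 ± 50.0 CPM in heat (SD, n = 4) and 822 ± 252 CPM in cold (SD, n = 5). For cold over heat, the estimated log2 fold change was 1.64 (SE, the standard error, 0.27), a 3.12-fold higher level. The C-28.2 libraries lay between those of heat and of C-28.1, without overlapping either.

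The level of the translocator gene Gs34210 separated heat from cold in the same way, at a lower count. It was 25.8 and 24.7 CPM in cultures B and C at H-42 and 102, 105 and 98.9 CPM in cultures A, B and C at C-28.1. In cultures A and C, it was 41.6 and 30.2 CPM at H-46 and 125 and 67.6 CPM at C-28.2. The C-28.1 libraries lay close together (SD 3.15 CPM, n = 3), whereas the C-28.2 libraries lay on either side of them. The lowest cold library, again C-28.2 C, was 1.62-fold above the highest heat library, again H-46 A. The mean was 30.6 ± 7.74 CPM in heat (SD, n = 4) and 99.6 ± 20.5 CPM in cold (SD, n = 5), and the log2 fold change was 1.71 (SE 0.22).

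The ABC transporter gene Gs16000 had the widest range of the 3, 13.4-fold between its lowest and highest library, against 5.25-fold in Gs15740 and 5.04-fold in Gs34210. Its level was 25.4 and 19.9 CPM in cultures B and C at H-42 and 211, 228 and 267 CPM in cultures A, B and C at C-28.1. In cultures A and C, it was 23.9 and 26.9 CPM at H-46 and 110 and 186 CPM at C-28.2. The heat libraries of both samplings lay within 19.9 to 26.9 CPM. The lowest cold library, C-28.2 A, was 4.09-fold above the highest heat library, H-46 C. The mean was 24.0 ± 3.01 CPM in heat (SD, n = 4) and 201 ± 58.7 CPM in cold (SD, n = 5), and the log2 fold change was 3.06 (SE 0.26), an 8.36-fold higher level.

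**Figure D1:**
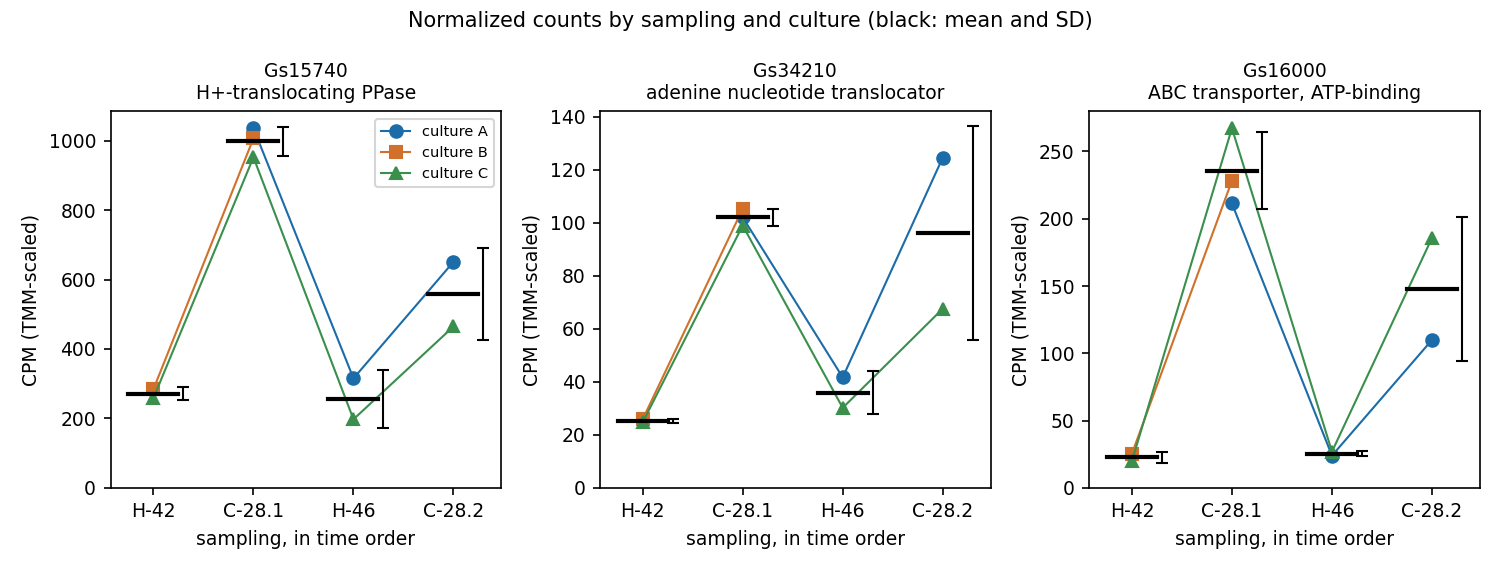
TMM-scaled CPM of Gs15740, Gs34210 and Gs16000 (y axes from 0) by sampling in time order, with a symbol and a line for each culture and the mean and SD of each sampling in black. All 3 genes are high in C-28.1 and C-28.2 and low in H-42 and H-46, and C-28.2 shows the wide gap between cultures A and C, such as 125 against 67.6 CPM in Gs34210.

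These values rest on 962 to 8391 counts in Gs15740, 147 to 877 in Gs34210 and 119 to 1903 in Gs16000. The counting error at the lowest count was 3.22%, 8.25% and 9.17%, respectively. Among all 6195 genes tested, 17.1% had every cold library above every heat library, and 5.42% passed the threshold for a higher level in cold. A gene passed where edgeR's quasi-likelihood test gave it an adjusted p (Benjamini-Hochberg) under 0.01 together with more than a 2.5-fold difference. By the size of their log2 fold change, Gs16000 ranked 18, Gs34210 ranked 154 and Gs15740 ranked 187 among the rises. Nothing is read from these ranks, since the same contrast chose the genes.

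Since every cold library lay above every heat library in these 3 genes, each culture sampled on both sides of a shift had to move in the same direction. The folds within cultures therefore describe the size of each move and are no separate evidence of its direction. At the first cold shift, where 6.28% of all genes passed as higher, the level of Gs16000 was 9.0-fold higher in culture B and 13.4-fold higher in culture C. That of Gs34210 was 4.08-fold and 4.0-fold higher, and that of Gs15740 3.55-fold and 3.68-fold higher. On rewarming to 46 °C, where 6.63% passed as lower, the level of Gs16000 was 8.83-fold lower in culture A and 9.94-fold lower in culture C. For Gs15740 it was 3.29-fold and 4.82-fold lower, and for Gs34210 2.45-fold and 3.28-fold lower. That every cold sampling of a culture stood above the heat samplings next to it restates the separation of heat from cold. At the second cold shift, where 5.7% passed as higher, the level of Gs16000 was 4.59-fold higher in culture A and 6.91-fold higher in culture C, that of Gs34210 2.99-fold and 2.24-fold higher, and that of Gs15740 2.07-fold and 2.35-fold higher. Culture C, the 1 culture with all 4 samplings, gave a smaller fold at the second shift than at the first in each of the 3 genes. The share of all genes with a smaller second fold in that culture was not counted. The shifts also began from heat samplings that differed in temperature and duration. None of the 3 genes passed the threshold for the difference between the shifts, given below. No weaker second response is therefore read from these folds.

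With each of the 4 samplings as its own condition in edgeR, the log2 fold change at the first cold shift was 3.38 (SE 0.28) in Gs16000, 2.01 (SE 0.27) in Gs34210 and 1.88 (SE 0.26) in Gs15740. At the second it was 2.54 (SE 0.28), 1.42 (SE 0.28) and 1.12 (SE 0.27), respectively. The second value depended on single libraries of the shift. For Gs34210 it was 0.92 when C-28.2 A was left out and 1.79 when C-28.2 C was, and for Gs15740 it was 1.52 when H-46 A was left out and 0.83 when H-46 C was. The shifts share no library.

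Comparisons within heat, within cold and between the cold shifts were not the contrast by which the genes were listed, and these were tested across all 6195 genes. None of the 3 genes passed the threshold in any of them. For H-46 against H-42, where 0.0484% of genes passed and 8.54% had an unadjusted p below 0.05, the log2 fold change was -0.08 in Gs15740 (95% interval -0.67 to 0.51, adjusted p = 0.933 in edgeR's test). It was 0.51 in Gs34210 (-0.11 to 1.12, adjusted p = 0.591) and 0.17 in Gs16000 (-0.44 to 0.77, adjusted p = 0.869) in the same edgeR test. The count of 3 genes behind that share was 8 without H-46 C and 23 with DESeq2. The intervals of the 3 genes described do not reach a 2.5-fold change, a log2 value of 1.32, in either direction.

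For C-28.2 against C-28.1, where 0.0161% of genes passed, Gs15740 had a log2 fold change of -0.84 (95% interval -1.39 to -0.29), and both C-28.2 libraries lay below all 3 of C-28.1, as they did in 27.3% of all genes. Its adjusted p of 0.0445 from edgeR was above the 0.01 threshold, and its fold change was under the minimum. It was 0.00521 to 0.269 over the alternatives run, none of which took the gene past both limits. Gs16000 likewise had both C-28.2 libraries below all of C-28.1, with a log2 fold change of -0.67 (-1.20 to -0.15, adjusted p = 0.0741 from edgeR). For Gs34210 the C-28.2 libraries lay above and below those of C-28.1, and the log2 fold change was -0.09 (-0.62 to 0.45, adjusted p = 0.821 from edgeR), positive at 0.29 without culture C of C-28.2. In this comparison 35.9% of all genes had an unadjusted p below 0.05. The 1 gene past the threshold became 138 with the culture as a block, 145 with DESeq2, 130 without H-46 A, 128 without H-46 C and 89 without C-28.2 A, so its share is no firm background.

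The difference between the cold shifts, second minus first on the log2 scale, was -0.84 in Gs16000 (95% interval -1.64 to -0.04, adjusted p = 0.181), -0.76 in Gs15740 (-1.56 to 0.04, adjusted p = 0.224) and -0.59 in Gs34210 (-1.41 to 0.22, adjusted p = 0.330) in the edgeR model. No gene of the 6195 tested passed the threshold for this difference in edgeR, whereas 1541 (24.9%) had an unadjusted p below 0.05 and 131 passed with DESeq2. Without H-46 C, 633 genes passed in edgeR, so the count of 0 rests on that library. None of the 3 genes was among those called by DESeq2.

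**Figure D2:**
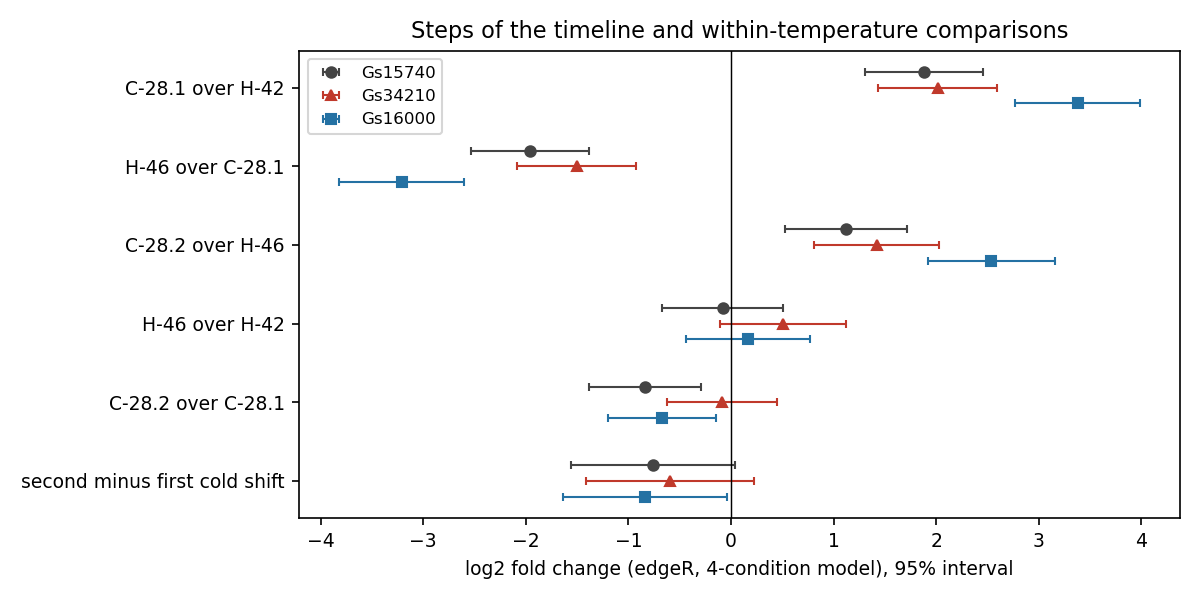
Log2 fold changes with 95% intervals from the 4-condition edgeR model (x axis) for each step of the timeline and each within-temperature comparison (y axis), with one symbol per gene. The steps, such as 3.38 for Gs16000 at the first cold shift, compare heat with cold, the contrast by which the genes were listed. Their intervals are a description and no test against 0. For H-46 with H-42 the intervals of all 3 genes include 0. For C-28.2 with C-28.1 those of Gs15740 (-1.39 to -0.29) and Gs16000 (-1.20 to -0.15) do not, nor does that of Gs16000 for the difference between the shifts (-1.64 to -0.04). None of the 3 genes passed the threshold in these comparisons.

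Of 4 other proton pumps named in the study's tables, 0 passed the threshold in either direction in cold against heat with edgeR and 0 with DESeq2. Of the 4, 2 had an unadjusted p below 0.05, as had 50.1% of all genes. Their median log2 fold change was 0.22, against -0.01 over all genes tested. The H+-transporting P-type ATPase Gs31560 took its name from the study's list of genes that differ between heat and cold, so it was not chosen independently of these cultures. P-type proton pumps energize the plasma membrane of plant and fungal cells. Gs31560 was at 173 ± 36.6 CPM in heat (SD, n = 4) and 195 ± 44.3 CPM in cold (SD, n = 5), with overlapping libraries. For the V-type H+-ATPase, a subunit of the membrane ring, c (Gs32160), had a lower level in every cold library (24.4 to 50.3 CPM) than in any heat library (51.1 to 69.4 CPM), as had 16.4% of all genes. Its log2 fold change was -0.77 (SE 0.22, adjusted p = 0.0150 from edgeR), not past the threshold. The subunit named b (Gs38850) overlapped between heat and cold, with a log2 fold change of 0.26 (SE 0.30, adjusted p = 0.501 from edgeR).

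A second gene with the same product name as Gs15740, Gs15900, is 16 places further in the gene order. Its level was 46.1 ± 4.90 CPM in H-42 (SD, n = 2), 111 ± 10.2 in C-28.1 (SD, n = 3), 66.9 ± 14.9 in H-46 (SD, n = 2) and 57.4 ± 5.98 in C-28.2 (SD, n = 2). For cold over heat, Gs15900 had a log2 fold change of 0.66 (SE 0.26, adjusted p = 0.0591 from edgeR), with overlapping libraries. Gs15900 was highest in the 3 libraries of C-28.1. In the edgeR model with 4 conditions, its log2 fold change at the first cold shift was 1.26 (SE 0.20, adjusted p = 0.000836). That value was under the fold minimum and not past the threshold. At the second shift it was -0.22 (SE 0.22, adjusted p = 0.449). The difference between these shifts, -1.48, had an adjusted p of 0.0686 in that model and was not past the threshold. Within a library, where scaling has no part, there were 3.50 to 6.06 counts of Gs15740 per count of Gs15900 in heat and 8.33 to 10.6 in cold. The ratio was highest in culture A of C-28.2 and lowest in culture C of H-46, and heat and cold did not overlap. Since Gs15740 was listed for its difference between heat and cold, this separation is a description and no separate evidence. How reads shared by these genes were counted is not stated in the sources used here, so this ratio is uncertain where their sequences are alike. Gene lengths were not at hand, so the ratio is described across libraries and does not give the relative transcript levels of these genes.

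**Figure D3:**
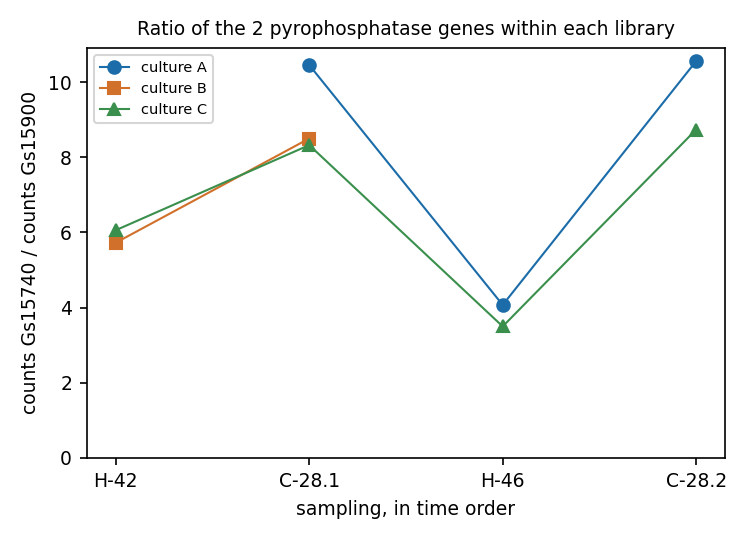
Counts of Gs15740 divided by counts of Gs15900 in each library (y axis from 0, no unit), by sampling in time order, with one line per culture. The ratio lies between 3.50 and 6.06 in the heat libraries and between 8.33 and 10.6 in the cold libraries.

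Among 7 other mitochondrial carriers, 2 passed the threshold as higher in cold and 0 as lower. The background was 5.42% of all genes higher and 4.47% lower, and the median of the 7 was 0.04 on the log2 scale. Gs42670, for which no substrate is named, was at 85.7 ± 27.4 CPM in heat (SD, n = 4) and 337 ± 63.4 CPM in cold (SD, n = 5). Its log2 fold change was 1.98 (SE 0.24, adjusted p = 7.79e-05 from edgeR), larger than that of Gs34210. Gs20540, named after BOU, an *Arabidopsis* mitochondrial carrier, and a carrier of S-adenosylmethionine, rose by 1.34 (SE 0.25, adjusted p = 0.00107 from edgeR). It lies at the 2.5-fold minimum, and it fell under it with library totals (1.25), with a minimum of 10 counts per library (1.32) and without single libraries (lowest 1.19, without H-46 C). With no fold minimum, Gs38480 (log2 fold change 1.04) was also called higher and Gs45200, again of the BOU type, lower (-0.68), both named after their values were seen. Over all genes, 13.9% were then called higher and 12.2% lower. The other carriers lay between -0.75 and 0.04.

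Of 7 other ABC transporter genes, 0 passed the threshold in edgeR or DESeq2 and 4 had an unadjusted p below 0.05, near the 50.1% over all genes. Gs16000, at 3.06 on the log2 scale, was listed for this contrast, so it is not ranked against these 7. Their log2 fold changes lay between -1.11 and 0.88, with a median of 0.34. Without the fold minimum, 1 was called higher and 1 lower, near the shares over all genes (13.9% and 12.2%), and the choice to name them came once their values were known. The ATP-binding protein of a sulfate transporter, Gs37370, had a log2 fold change of 0.88 (SE 0.17, adjusted p = 0.00117 from edgeR), and Gs29430, with an ATP-binding and a transmembrane domain, one of -1.11 (SE 0.23, adjusted p = 0.00230 from edgeR). Product names came from the study's tables, so these lists hold a part of the transporters in the genome, mostly genes listed there for alternative splicing.

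**Figure D4:**
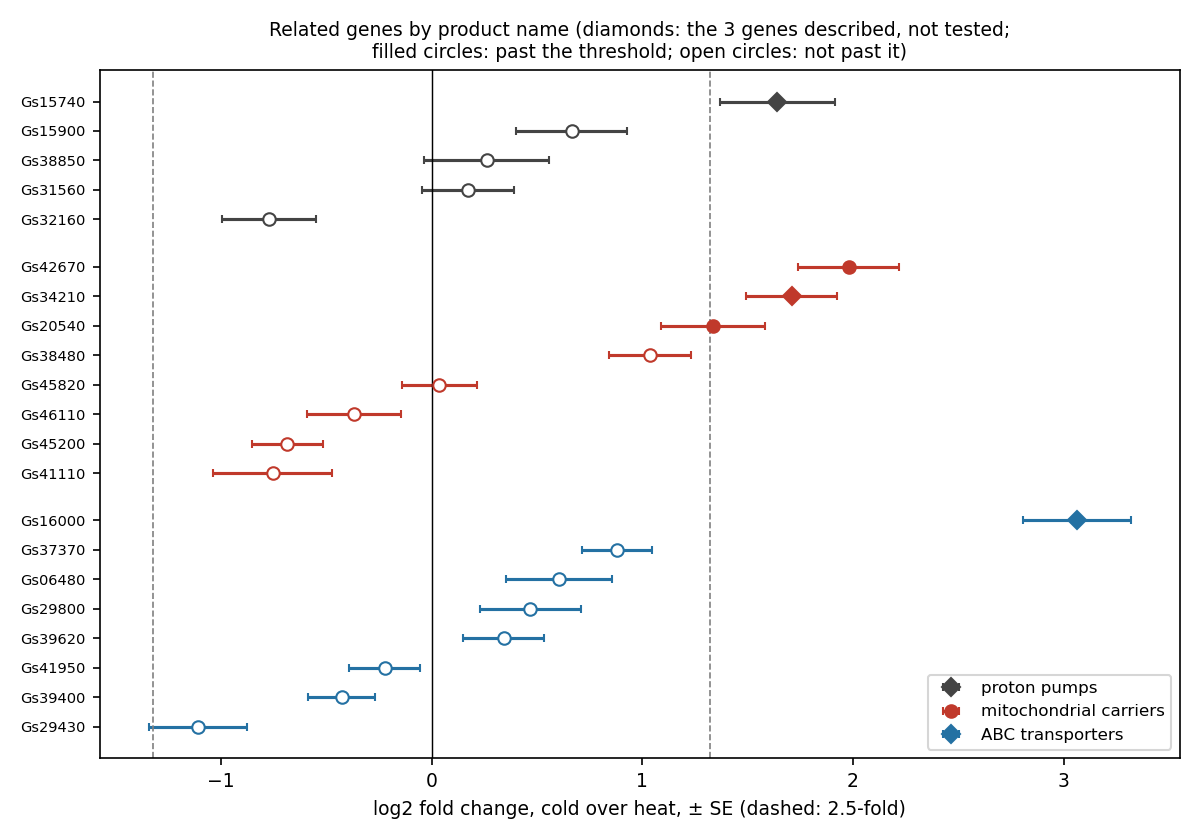
Log2 fold changes of cold over heat with standard errors (x axis) for the proton pumps, mitochondrial carriers and ABC transporters named in the study's tables (y axis), with dashed lines at a 2.5-fold change. The diamonds of Gs15740 and Gs16000 lie to the right of every other gene of their lists, whereas Gs42670 (1.98) lies to the right of Gs34210 (1.71). The 3 genes were listed for this contrast and most others for alternative splicing, so nothing is read from this order.

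The genome of *G. sulphuraria* is compact, and the strand setting of the counts is not stated in the sources used here, so reads of overlapping neighbours could not be told apart. The nearest genes on each side were therefore set beside the 3 genes. Next to Gs34210, cold over heat gave a log2 fold change of 4.57 in Gs34200 (SE 0.55, adjusted p = 7.28e-05 from edgeR) and 1.57 in Gs34220, a 40S ribosomal protein S6e (SE 0.25, adjusted p = 0.000385 from edgeR). Gs34200, which has no product name in the tables, had 2 to 20 counts in the heat libraries and 125 to 315 in the cold libraries, fewer than Gs34210 in every library. The ATP-dependent RNA helicase Gs34230, the next gene but one, was at 1.17 (SE 0.27, adjusted p = 0.00411 from edgeR), below the fold minimum, and Gs34190 on the other side at -0.03 (SE 0.22).

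Beside Gs15740, the log2 fold change was 1.45 in Gs15730 (SE 0.29, adjusted p = 0.00172 from edgeR), which was 1.27 and no longer past the threshold without H-46 C. On the other side it was -0.76 in Gs15750 (SE 0.16, adjusted p = 0.00287 from edgeR), in the opposite direction and under the fold minimum. Around Gs16000 no neighbour passed the threshold. Gs15990 was at 0.77 (SE 0.19, adjusted p = 0.00659 from edgeR), higher in cold but under the fold minimum. The 3-oxo-5-alpha-steroid 4-dehydrogenase gene Gs16010 was at -0.31 (SE 0.25, adjusted p = 0.334 from edgeR) and Gs16020 at -0.34 (SE 0.16, adjusted p = 0.112 from edgeR). Differences between neighbouring genes were not tested. Whether transcripts of neighbouring genes contributed reads was not tested.

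**Figure D5:**
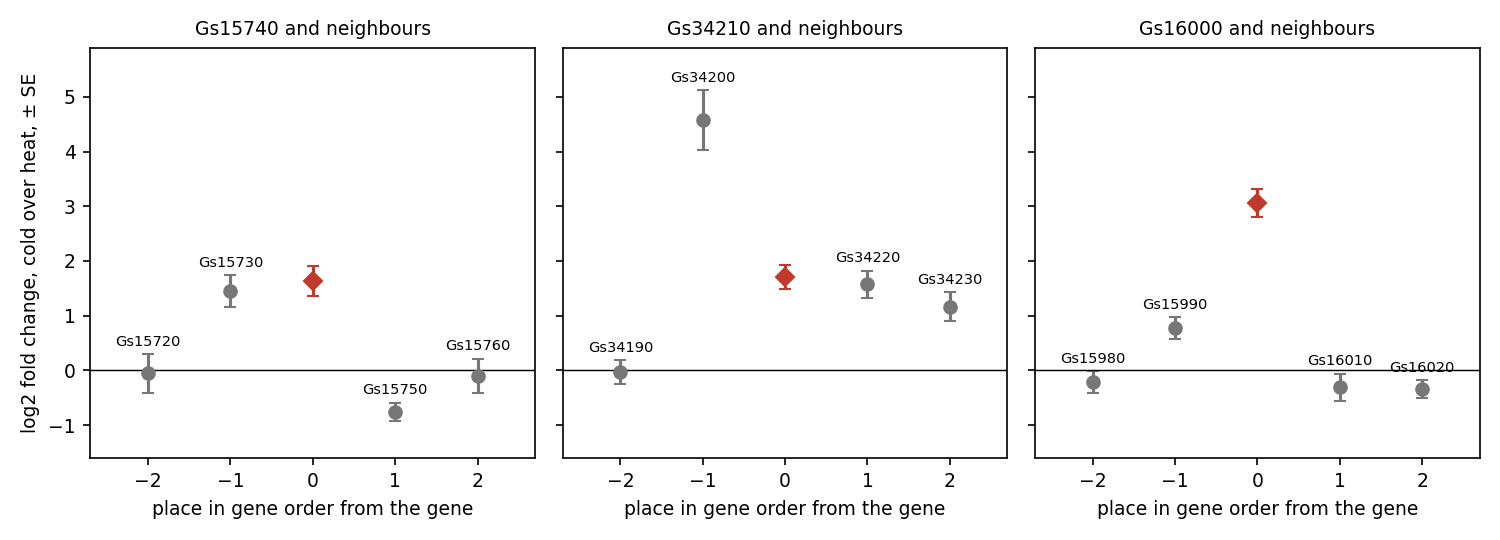
Log2 fold changes of cold over heat with standard errors (y axis) for Gs15740, Gs34210 and Gs16000 (diamonds) and the genes up to 2 places away on each side in the gene order (circles, x axis). Both genes adjacent to Gs34210 lie above 1.5, whereas those around Gs16000 lie between -0.34 and 0.77.

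Over the 9 libraries, the log2 levels of the 3 genes had Pearson correlations of 0.92 (Gs15740 with Gs34210), 0.92 (Gs15740 with Gs16000) and 0.91 (Gs34210 with Gs16000). These describe the separation of heat from cold that the genes share. Of 5929 other genes that reached 10 counts in all 9 libraries, 569 had an r above 0.9 with Gs15740, 456 with Gs34210 and 412 with Gs16000. Most alike to Gs15740 were Gs45160 (r = 0.997), Gs03000 (0.997) and Gs39840 (0.997), none of which has a product name in the tables. Most alike to Gs34210 were the gene of adenylosuccinate synthase, an enzyme on the way from IMP to AMP (Gs55490, r = 0.990), Gs15130 (0.987) and Gs39880 (0.985). With library totals in place of TMM, Gs55490 ranked 12 and Gs15130 came first. Most alike to Gs16000 was the hypothetical protein Gs25280 (r = 0.991), the gene with the largest rise of all those tested (log2 fold change 5.53, SE 0.50). Gs50680 (0.990) and the hypothetical protein Gs36040 (0.988) came next.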

How the data were processed

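Libraries were sequenced as pairs on 2 lanes, and their assignment to lanes is not given in the sources used here. The study's methods describe, for its splicing analysis, trimming with Trimmomatic, mapping with STAR to the 074W genome and removal of reads with several locations and of broken pairs. Whether the counts come from these alignments, the annotation and the strand setting are not given in the sources used here. The files deposited by the authors hold unnormalized counts for 6538 genes. After TMM scaling, the quasi-likelihood test of edgeR 4.0.16 was run in R 4.3.3 (with limma 3.58.1) on heat against cold, grouped as in the study, and in a model with 4 conditions, on the 6195 genes kept by filterByExpr. Neither model had a term for the culture, so libraries of the same culture were treated as independent. The SE was taken from the log2 fold change and the F statistic (their ratio after a square root of F). The 95% intervals use the t distribution of the fit. The method was tested on simulated data drawn as independent libraries, so that test does not cover repeated sampling of a culture. No chance test was built on the gene lists.

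Product names came from the study's supplementary tables, and gene order from RefSeq (ASM34128v1), which matched 6510 genes. The table gives no product names or sequences, so none are shown, nor coordinates. The protein features that had been planned were not computed. No level was adjusted for gene length, since no length of the build used was at hand. Counts of Gs15740 with Gs15900 and of Gs34200 with Gs34210 were set side by side without that adjustment. The 3 genes and the lists were chosen with earlier results of these data known. Named besides the 3 genes were all listed proton pumps, up to 3 called genes of the other lists, neighbours and the 3 genes most alike in r of log2 CPM (prior count 2). Alternatives were DESeq2 1.42.0, RLE factors, library totals, other low-count filters, the culture as a block, no fold minimum, only genes outside the study's list and leaving out each library. The replicate letters were taken to pair libraries, since the study moved the same cultures through the samplings. That a letter stands for the same culture in every sampling was not checked. Deviations from the sampling mean correlated at 0.03 to 0.56 within a culture and at -0.56 to 0.34 between cultures. In a sampling of 2 libraries these deviations mirror each other, so the values do not test the pairing. Within a sampling, no libraries were duplicates: the chi-square per gene was 12.8 to 25.4 in H-42 and C-28.1. Replicates differed more in H-46 (75.4) and C-28.2 (67.1). Libraries of different samplings were not compared in this way.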

Additional observations from a re-analysis of the deposited data

How the results depend on the processing

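Under the 15 alternatives, the log2 fold change in cold against heat was 1.53 to 1.79 in Gs15740. It was 1.61 to 1.90 in Gs34210 and 2.95 to 3.23 in Gs16000. Leaving out a library could not turn these directions, since every cold library lay above every heat library and this contrast chose the genes. None of the 3 genes passed the threshold within heat, within cold or between the cold shifts under any alternative. With library totals only, the median of all genes in cold against heat moved to -0.10. There Gs15740 reversed to 0.063 for H-46 over H-42 and the carrier Gs45820 to -0.069 in cold against heat, and C-28.2 over C-28.1 gave 44 genes. Of the 7 carriers other than Gs34210, which was not tested in cold against heat, 1 passed as higher. With at least 10 counts in every library, 1 of them likewise passed, and H-46 over H-42 gave 1 gene. DESeq2 called 23 genes for H-46 over H-42, 145 for C-28.2 over C-28.1 and 131 for the difference between the shifts, against 3, 1 and 0 in edgeR. With the culture as a replicate block these were 138 for C-28.2 over C-28.1 and 3 for the difference between the shifts, Gs34190 reversed to 0.013, and no call on a named gene changed. With no low-count filter C-28.2 over C-28.1 gave 32 genes. With no fold minimum cold against heat gave 1617 genes (864 higher and 753 lower) in place of 336 higher and 277 lower, and 1 carrier was lower, 1 ABC transporter higher and 1 lower.

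Without single libraries, pooling the spread with the other samplings where 1 library was left, cold against heat gave 508 to 725 genes, H-46 over H-42 0 to 8, C-28.2 over C-28.1 0 to 130 (130 without H-46 A) and the difference between the shifts 0 to 633 (633 without H-46 C), and 1 to 2 carriers were higher. The step from H-46 to C-28.2 ranged from 0.83 to 1.52 in Gs15740, 0.92 to 1.79 in Gs34210 and 2.11 to 2.88 in Gs16000, and that from C-28.1 to H-46 from -2.36 to -1.67 in Gs15740. Values that reversed were those of Gs15740 for H-46 over H-42 (-0.47 to 0.22), of Gs34210 for C-28.2 over C-28.1 (-0.59 to 0.29) and, in cold against heat, of Gs15720 (-0.53 to 0.11), Gs15760 (-0.29 to 0.074), Gs34190 (-0.15 to 0.063) and Gs45820 (-0.052 to 0.15). For none of these values was the cause tested. With 2 libraries in 3 of the samplings, the intervals of within-temperature comparisons are wide.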
